A study of Homo sapiens with 6 samples.

Results

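The MYC, MYCN and MAX network is a set of transcription factors that pair through a shared helix-loop-helix and leucine zipper domain. Its 10 genes were chosen by name, as the rows of the normalized count table whose symbol was MYC, MYCN, MYCL, MAX, MXD1, MXD3, MXD4, MXI1, MNT or MGA, out of 35268 named genes. All 10 were in the table, and all 10 had a mean of at least 10 normalized counts over the libraries, as 13930 genes did, and were tested. RNAseq was performed on Rh30 cells 24 hours after YK-4-279 (1 µM) or vehicle (DMSO) was added, with 3 libraries in each group. Rh30 is an established human cell line from fusion-positive rhabdomyosarcoma (FP-RMS), a muscle-lineage cancer driven by the fusion protein PAX3-FOXO1, and both groups carried that fusion and the same culture medium and solvent. YK-4-279 is a small molecule first made against the EWS-FLI1 fusion of Ewing sarcoma and since used against other ETS transcription factors, and the study asked whether it interferes with gene regulation by PAX3-FOXO1 and ETS1 in FP-RMS. The RNAseq covers 1 line, 1 dose and 1 time point, so no value here speaks for another line. The labels do not say whether the replicates were separate cultures, so the p-values measure only the spread between these libraries, which may be technical.

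MYC, MYCN (the paralog known from neuroblastoma and from embryonic tissue) and MYCL each bind DNA only as a pair with MAX, and these pairs activate genes of growth, ribosome production and the cell cycle at a short DNA motif called the E-box. MXD1, MXI1, MXD3 and MXD4 compete for MAX and for the same motif and bring the SIN3 corepressor with its histone deacetylases, and in many tissues MXD1 and MXD4 are known from cells that leave the cell cycle and differentiate. MNT, a more widely present antagonist, also pairs with MAX and binds SIN3, and MGA joins MAX to a Polycomb-type repressor complex. MYCN is a known target of PAX3-FOXO1 in FP-RMS, which makes the level of its transcript a point of interest after a treatment aimed at the fusion's partner ETS1.

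The E-box, CACGTG, was looked for in the promoters of the members, since the same factors that compete at this motif are among the genes measured. RefSeq start sites on GRCh38.p14 gave 14 windows for 9 of the 10 members, from 250 bases before to 50 bases after each start. The motif was in 2 of the 14 windows, against 7.26% of all 35116 windows of this length. The 2 were those of MXD4, 238 bases before the start, and MNT, 193 bases before it. The variant E-box CACGCG, searched on both strands, was in 3 of 14 windows and in 11.4% of all windows. Among members it lay 8 bases after a RefSeq start of MXD3 and of MXI1 and 21 bases before a start of MGA. A gene can have several RefSeq starts, and these of MXI1 and MGA lie inside the annotated gene. The E2F-type motif TTTCGCGC was in 1 window, that of MYCN, 172 bases before the start, and in 0.515% of all windows. The ETS-type motif CCGGAAGT was in 0 of the 14 windows and in 4.14% of all windows. A match is a run of letters and does not show that a factor binds there. The stretches around the motif are shown for the 2 genes with the canonical E-box, for MXD3, whose transcript differed most in the opposite direction from MXD4, and for MYCN, the most abundant member per kilobase. Capitals mark the motif, and each is written 5′ to 3′ along the strand of its gene.
MXD4, chr4:2262315-2262359, minus strand: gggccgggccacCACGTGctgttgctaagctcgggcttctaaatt
MNT, chr17:2401221-2401280, minus strand: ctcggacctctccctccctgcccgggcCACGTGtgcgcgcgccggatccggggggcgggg
MXD3, chr5:177312727-177312756, minus strand: aaaaggccatttCGCGTGcctccagggtat
MYCN, chr2:15940351-15940412, plus strand: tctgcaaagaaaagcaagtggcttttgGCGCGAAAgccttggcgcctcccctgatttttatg

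The libraries held between 16724650 and 24677433 reads on named genes, and each member had between 249 and 4989 reads in each library. DMSO replicate 1 stood apart, with a mean correlation across genes of 0.989 with the other libraries, where the other 5 had 0.992 or more, and with 6.05% of its reads on mitochondrial genes against 4.74% to 5.03%. It was the highest or lowest of the 3 DMSO libraries for all 10 members, as it was for 84.6% of the genes tested, so the changes of the members below are also given without it. The markers of muscle lineage and of FP-RMS fitted the label, since 13 of 14 had a mean of at least 400 normalized counts, and only MYF6 was near 0. Of 14 markers of endothelial, immune, epithelial, liver, pigment and glial cells, CD68 and KRT5 were at 0 in all libraries and 5 had a mean of at least 10. Their summed level was 109 to 129 normalized counts in DMSO and 131 to 178 in YK-4-279, next to summed FP-RMS markers of 104644 to 118942 and 109651 to 115048, and the part of those other markers in the results was not tested. In bulk RNA, fewer cells of a kind and less RNA per cell cannot be told apart.

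MYCN was the most abundant member per kilobase, though in counts MGA came close, and neither MYCN nor MYC changed detectably with YK-4-279. The gene lies on chromosome 2 (hg38, 15940550 to 15947007, plus strand). MYCN had 3583, 4124 and 4166 normalized counts in DMSO replicates 1, 2 and 3 and 4143, 4174 and 3929 in YK-4-279 replicates 1, 2 and 3. The groups overlapped, and DMSO replicate 1 was the lowest of all 6 libraries. The mean went from 3958 ± 325 to 4082 ± 133 (SD, n = 3 per group), or 0.05 as a log2 fold change, with a 95% confidence interval (CI) of -0.10 to 0.19 (limma, adjusted p = 0.746). Without DMSO replicate 1 the interval was -0.11 to 0.06.

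MYC, the family member found in most dividing cells, had 981, 1116 and 1122 normalized counts in DMSO and 1134, 1131 and 1069.5 in YK-4-279. Here too DMSO replicate 1 was lowest and the other 5 libraries lay close together. The mean went from 1073 ± 79.8 to 1111 ± 36.3 (SD, n = 3 per group). Its log2 fold change was 0.05 (standard error (SE) 0.07, 95% CI -0.11 to 0.21, limma adjusted p = 0.742), and without DMSO replicate 1 the interval was -0.12 to 0.10.

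The ratio of MYCN to MYC lay between 3.65 and 3.71 in every library. It was 3.65, 3.69 and 3.71 in DMSO and 3.65, 3.69 and 3.67 in YK-4-279, so the groups overlapped and DMSO replicate 1 did not stand apart. The coefficient of variation over the 6 libraries was 0.638%, which is smaller than the 3.07% to 4.05% that counting error alone gives for the ratio in 1 library. On the log2 scale MYC over MYCN differed by 0.0055 between the groups (two-sided exact permutation test of 3 against 3 libraries, p = 0.5). With 3 against 3 libraries that test cannot go below 0.1, so it could not have passed the threshold for any difference.

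MYCL, the paralog known from small cell lung cancer, had 448, 501 and 549 normalized counts in DMSO and 542, 555 and 483 in YK-4-279. The groups overlapped, with a log2 fold change of 0.08 (95% CI -0.12 to 0.28, limma adjusted p = 0.686), which was 0.0043 without DMSO replicate 1. MAX, the partner that MYC, MYCN and MYCL need to bind DNA, had 692, 676 and 599 in DMSO and 654, 693 and 694 in YK-4-279. Its groups overlapped as well, and its log2 fold change was 0.05 (95% CI -0.12 to 0.23, limma adjusted p = 0.757), or 0.0949 without DMSO replicate 1. By limma, edgeR and DESeq2, 0 of these 4 genes were called, against 3.41% of all genes by limma, and 0 had an unadjusted p under 0.05, against 18.7% of all genes. With 4 genes, counts of 0 are close to those shares.

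**Figure D1:**
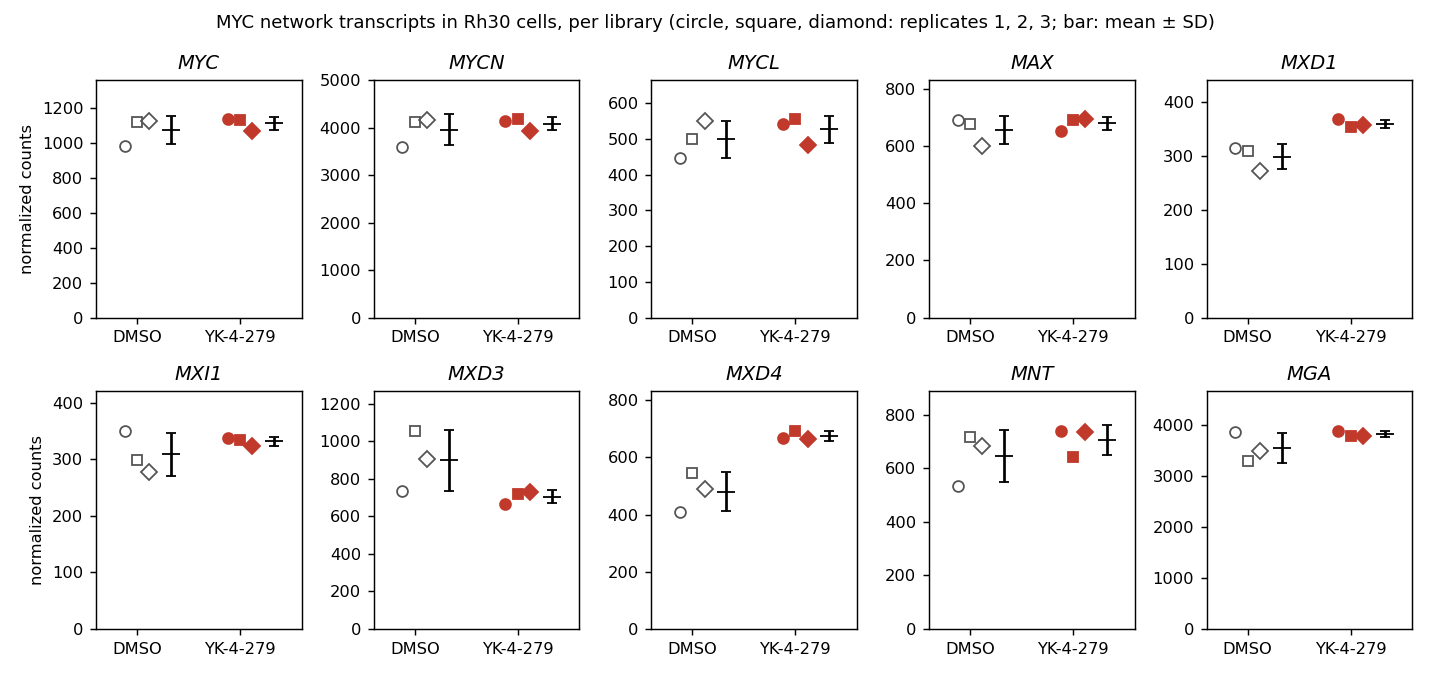
Normalized counts of the 10 network genes in each library, 1 panel per gene with its own axis from 0. Open symbols are DMSO, filled symbols YK-4-279, the circle, square and diamond are replicates 1, 2 and 3, and bars give the mean and SD of 3 libraries. MYC and MYCN overlap between the groups, while the 3 YK-4-279 libraries of MXD4 (663 to 693) and MXD1 (353 to 368) lie above, and those of MXD3 (665 to 731) below, every DMSO library.

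Among the antagonists, MXD4 rose and was the 1 member called, which is 1 of 10 against 3.41% of all genes tested, and 1.26% for genes called higher. MXD4 lies on chromosome 4 (hg38, 2247432 to 2262109, minus strand). It had 407, 546 and 488 normalized counts in DMSO and 667, 693 and 663 in YK-4-279. Every YK-4-279 library was above every DMSO library, and the YK-4-279 libraries were the closer to each other. The mean rose from 480.4 ± 69.5 to 674 ± 16.4 (SD, n = 3 per group), by 40.4%, with a log2 fold change of 0.50 (SE 0.10, 95% CI 0.28 to 0.71, limma adjusted p = 0.0169). The size of this change was larger than that of 94.7% of the genes tested. Over 17 alternative settings the log2 fold change of MXD4 lay between 0.38 and 0.60 and its adjusted p between 6.18e-05 and 0.133, past the threshold in 13. Without DMSO replicate 1 it was 0.38 (95% CI 0.24 to 0.53). It missed the threshold without YK-4-279 replicate 1, 2 or 3 (adjusted p = 0.12, 0.12 and 0.0928) and without a trend in the variance (adjusted p = 0.133).

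MXD1, the founding member of the MXD family, was higher in each YK-4-279 library but was not called. It had 314, 309.8 and 272 normalized counts in DMSO and 368, 353 and 357 in YK-4-279, with no overlap. The log2 fold change was 0.27 (SE 0.09, 95% CI 0.07 to 0.47), with an unadjusted p of 0.0126 and a limma adjusted p of 0.139. Without DMSO replicate 1 it was 0.31 with an adjusted p of 0.0177, and over the 17 alternatives the adjusted p of MXD1 ranged from 0.0177 to 0.413 and its log2 fold change from 0.20 to 0.31.

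MXD3, the family member reported in proliferating rather than in resting cells, was the 1 member with a lower mean in YK-4-279. It had 734, 1056 and 903 normalized counts in DMSO and 665, 719 and 731 in YK-4-279. The groups did not overlap, although DMSO replicate 1 was only just above the highest YK-4-279 library. The mean went from 898 ± 161 to 705 ± 35.4 (SD, n = 3 per group), with a log2 fold change of -0.33 (SE 0.11, 95% CI -0.57 to -0.10, limma adjusted p = 0.116). Without DMSO replicate 1 it was -0.47 with an adjusted p of 4.56e-07, and over the 17 alternatives the adjusted p of MXD3 ranged from that value to 0.416 and its log2 fold change from -0.47 to -0.21, the smallest being without DMSO replicate 2 (adjusted p = 0.223). In the annotation, 24.2% of the exon bases of MXD3 are shared with PRELID1 on the opposite strand and 19.5% with RAB24 on the same strand, and the strand setting of the counting is not given in the sources used here. PRELID1 had means of 1854 and 1740.0 and RAB24 of 83.1 and 78.8 in DMSO and YK-4-279, so reads near MXD3 may be divided between these genes.

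MXI1, also called MXD2, had 351, 299 and 277 normalized counts in DMSO and 338, 335 and 323 in YK-4-279. The groups overlapped through DMSO replicate 1, which was the highest library, and the log2 fold change was 0.11 (95% CI -0.11 to 0.33, limma adjusted p = 0.601). Without that library the groups did not overlap and it was 0.20 (95% CI 0.018 to 0.39, limma adjusted p = 0.148, with a range of 0.148 to 0.907 over the alternatives), while without DMSO replicate 3 it was 0.04. MNT had 536, 718 and 683 in DMSO and 741, 643 and 737 in YK-4-279, overlapping, with a log2 fold change of 0.14 (limma adjusted p = 0.513) that was 0.01 without DMSO replicate 1 and at most 0.22 under the alternatives. MGA had 3866, 3302 and 3488 in DMSO and 3888, 3784 and 3786 in YK-4-279. DMSO replicate 1 of MGA lay among the YK-4-279 libraries, and the log2 fold change was 0.11 (95% CI -0.03 to 0.25, limma adjusted p = 0.396). Without that library it was 0.17 with an adjusted p of 0.00313, and over the alternatives the adjusted p of MGA ranged from there to 0.681. Without DMSO replicate 2 the log2 fold change of MGA was 0.06 (adjusted p = 0.669).

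In all, 9 members had a higher and 1 a lower mean in YK-4-279, with a median log2 fold change of 0.09 against -0.007 for all genes tested. The groups did not overlap for 3 of 10 members, MXD1, MXD3 and MXD4, which is close to the 26.0% of all genes tested, so non-overlap on its own is not particular to the network. The SD was larger in DMSO than in YK-4-279 for all 10 members and for 69.4% of the genes tested. Leaving out DMSO replicate 1 brought the members called from 1 to 4, MXD1, MXD3, MXD4 and MGA, while leaving out any YK-4-279 library brought them to 0. The calls over all genes moved the same way, from 3.41% to 13.1% without DMSO replicate 1 and to 0.136%, 0.165% and 0.33% without YK-4-279 replicates 1, 2 and 3. Over those alternatives MYC, MYCN, MYCL, MAX, MXI1 and MNT were called in 0 of 17.

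**Figure D2:**
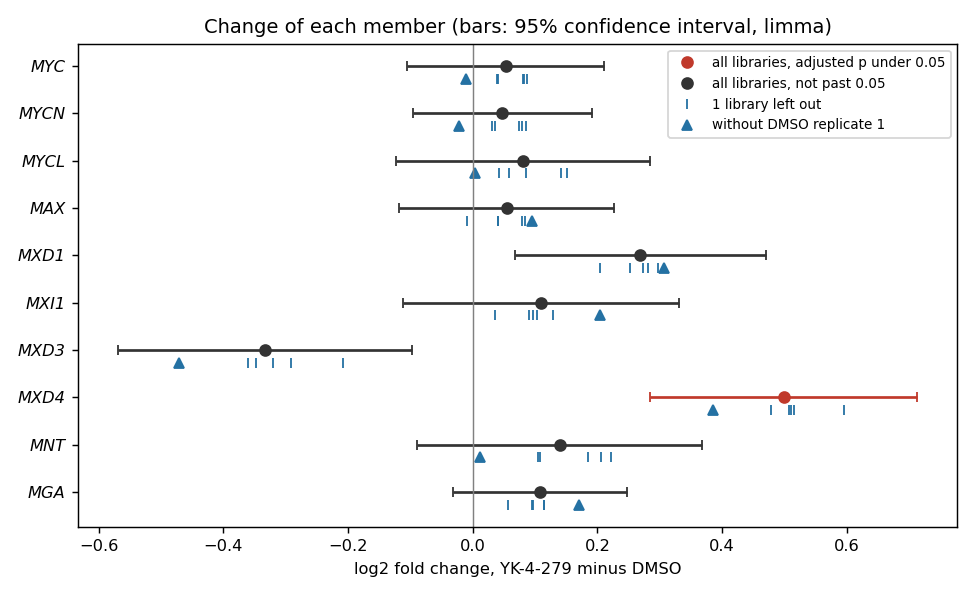
Log2 fold change (YK-4-279 minus DMSO, log2 of normalized count + 1) of each network gene. Circles and bars are the estimate and 95% confidence interval from limma with all 6 libraries, red where the adjusted p was under 0.05, ticks are the estimates with 1 library left out and triangles those without DMSO replicate 1. The intervals of MYC, MYCN, MYCL and MAX include 0, that of MXD4 runs from 0.28 to 0.71 and that of MXD3 from -0.57 to -0.10.

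Levels of different genes were compared per kilobase of exon. In DMSO, MYCN stood at 1437 ± 118 normalized counts per kb (SD, n = 3). MXD3 at 189 ± 34.0, MGA at 177 ± 14.3 and MYC at 176 ± 13.1 followed and did not differ beyond their spread. The same held for MAX at 105 ± 7.93 and MYCL at 101 ± 10.2, for MNT at 74.2 ± 11.1 and MXD4 at 69.9 ± 10.1, and for MXI1 at 52.3 ± 6.38 and MXD1 at 47.0 ± 3.62. With YK-4-279, MXD3 at 149 ± 7.46 lay below MGA at 190.3 ± 2.96 and MYC at 182 ± 5.95, and MXD4 at 98.1 ± 2.39 lay above MNT at 81.3 ± 6.37. Lengths were those of all annotated exons together, and part of this order rested on that choice. With the length of the longest coding transcript instead, MYCN stayed first, at 1515 per kb in DMSO and 1562 in YK-4-279. In DMSO the mean of MXD3 was then 396, against 288 for MYC and 244 for MGA. In YK-4-279 it was 311, against 299 for MYC, with overlapping libraries, and 262 for MGA. MAX and MYCL, close per kb of exon, were apart at 208 and 142 in DMSO, as were MXI1 and MXD1 at 89.0 and 53.5, while MNT and MXD4 were at 131 and 124.

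MYC, MYCN and MYCL together gave 1713 ± 140.3 normalized counts per kb in DMSO and 1770 ± 62.0 in YK-4-279, and MYCN was 83.9% and 83.7% of this sum. The 4 MXD genes together gave 323, 401 and 351 per kb in DMSO and 352, 365 and 362 in YK-4-279. These sums overlapped, and their means were 359 ± 39.8 and 359.6 ± 6.55. The sign of this difference was not stable, being 0.297% with all libraries, -4.47% without DMSO replicate 1, 6.68% without DMSO replicate 2, where the sums did not overlap, and -2.61% by coding transcript length, where the sums were 662 and 645. The makeup of the sum also differed between the groups. MXD3 was 47.9%, 55.5% and 54.2% of it in DMSO and 39.8%, 41.6% and 42.6% in YK-4-279, whereas MXD4 was 18.4%, 19.8% and 20.2% and then 27.5%, 27.7% and 26.7%.

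The ratio of MXD4 to MXD3 in normalized counts was 0.555, 0.517 and 0.541 in DMSO and 1.00, 0.964 and 0.907 in YK-4-279. It was chosen after the values were seen and is given as a description, without a test. The groups did not overlap, and DMSO replicate 1, low in both genes, was close to the other DMSO libraries in their ratio. The means were 0.537 ± 0.0194 and 0.958 ± 0.0481 (SD, n = 3 per group), and counting error for the ratio was 5.07% to 6.94% per library. MXD1, MXI1 and MXD4 without MXD3 summed to 168, 179 and 161 per kb in DMSO and to 212, 213 and 207 in YK-4-279, also a sum chosen after the values were seen.

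**Figure D3:**
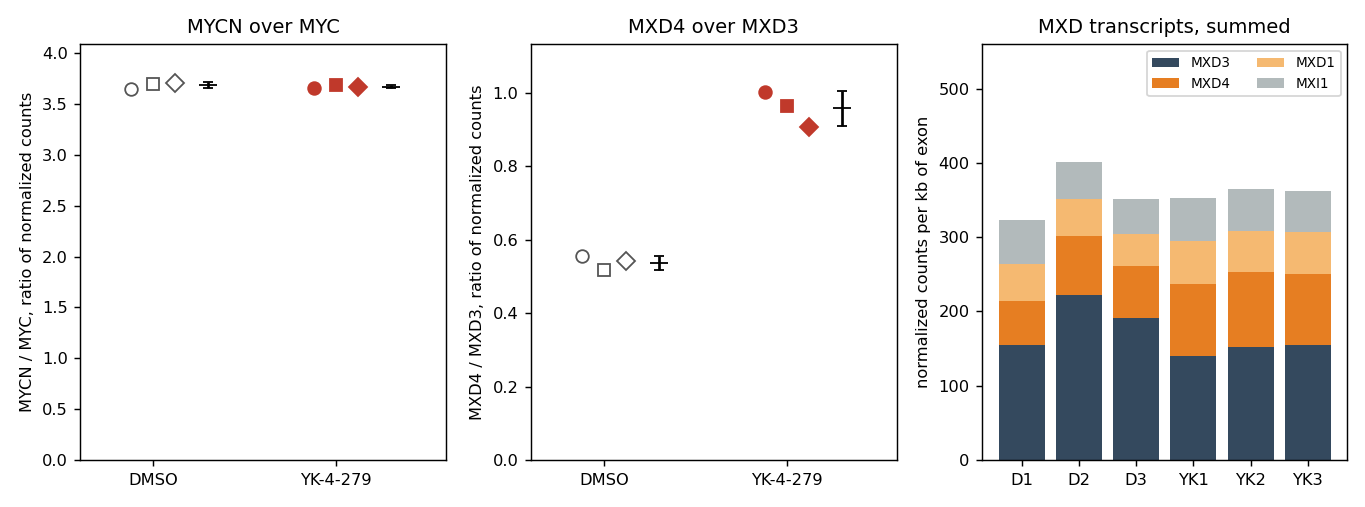
Ratios of normalized counts of MYCN to MYC (left) and MXD4 to MXD3 (middle) in each library, with open symbols for DMSO, filled symbols for YK-4-279 and bars for the mean and SD of 3 libraries, and (right) the 4 MXD genes stacked per library in normalized counts per kb of exon (D, DMSO). The ratio of MYCN to MYC lies between 3.65 and 3.71 throughout, that of MXD4 to MXD3 at 0.517 to 0.555 in DMSO and 0.907 to 1.00 in YK-4-279, and the stacked sums overlap.

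The 3 genes whose profile over the 6 libraries was closest to that of MXD4, by root mean square distance of centred log2 values among 10698 genes, were FRAT1 at 0.0312, SPEN-AS1 at 0.0326 and SLC25A20 at 0.0419. FRAT1, an inhibitor of the kinase GSK3 in WNT signalling, went from 98.7 ± 16.5 to 134 ± 2.49 normalized counts (limma adjusted p = 0.110). SPEN-AS1, an antisense RNA, rose by 0.47 on the log2 scale (limma adjusted p = 0.0360), and SLC25A20, the mitochondrial carnitine carrier, went from 137 ± 24.9 to 192 ± 6.58 (limma adjusted p = 0.0669). The profiles compared include the difference between the groups. The rise of these 3 genes therefore follows from how they were picked, and their p-values are descriptions only.

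The genes beside MYCN and MYC were read from the same table. On the MYCN side, DDX1, an RNA helicase often co-amplified with MYCN, had means of 4450.3 in DMSO and 4349.8 in YK-4-279, and NBAS had 1648 and 1619, with log2 fold changes of -0.03 and -0.02. The antisense RNA MYCNOS, which shares 98 exon bases with MYCN, had 131 and 137 (limma adjusted p = 0.806), GACAT3 had 59.4 and 61.7, and MYCNUT was near 1 count. CYRIA, a regulator of RAC1, was the 1 neighbour called, out of 5 tested on this side, against 3.41% of all genes. It fell from 899 ± 57.4 to 728 ± 1.49 (SD, n = 3 per group), with a log2 fold change of -0.30 (limma adjusted p = 0.0395). With so few genes, 1 call says little about the region. On the MYC side, the long noncoding RNA PVT1 had 78.8 and 83.5 (limma adjusted p = 0.934) and LRATD2 had 225 and 257 (limma adjusted p = 0.373). CASC11, POU5F1B and GSDMC had means under 1 count in both groups and CASC8 was at 0. Around the other members, FNTB, FUT8, TRIT1, MFSD2A, MAPKBP1, SGSM2 and METTL16 were not called, the lowest adjusted p being 0.0604 for MFSD2A, a lipid transporter beside MYCL.

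Cofactors through which the network acts were counted by list. The lists were chosen with earlier results of these data known, so their counts are descriptions. Over all genes tested, 18.7% had an unadjusted p under 0.05, which is the share to set beside such counts below, and the gene named for its mean count is the highest in counts, not per kb. The parallel MLX arm, in which MLX pairs with the glucose-sensing factors MLXIP and MLXIPL and can also pair with MXD factors, had 4 genes tested and 0 called by limma, with 1 at an unadjusted p under 0.05 and 1 called by edgeR and by DESeq2. That 1 was ARRDC4, a target of MLXIP, at 170.3 ± 31.6 and 238 ± 5.43 normalized counts (limma adjusted p = 0.0552), named after its values were seen. MLXIP, which had the highest mean count of the list, had a log2 fold change of -0.01. Of 15 cofactors of activation, 0 were called by limma, edgeR or DESeq2, with 2 at an unadjusted p under 0.05. HCFC1, with the highest mean count, had a log2 fold change of -0.02.

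Of 14 genes of the SIN3 corepressor complex that MXD and MNT recruit, 2 were called, both lower, and the median log2 fold change was -0.06 against -0.007 over all genes. The percentage called lower among all genes was 2.15%. Unadjusted p-values under 0.05 were found for 3 of the 14. RBBP4 and RBBP7, histone chaperones that also belong to other chromatin complexes, fell by 0.32 and 0.27 on the log2 scale (limma adjusted p = 0.0129 and 0.0222). RBBP4 had 7211, 6354 and 6572 normalized counts in DMSO and 5246, 5401 and 5504 in YK-4-279, without overlap. HDAC2, with the highest mean count of the list, had a log2 fold change of -0.04 (limma adjusted p = 0.795). Of 9 genes of the MGA complex, 3 had an unadjusted p under 0.05 and 1 was called. TFDP1, the partner of E2F factors, fell from 3951 ± 90.9 to 3206 ± 92.2 (SD, n = 3 per group), with a log2 fold change of -0.30 (limma adjusted p = 0.0118), and CBX3, with the highest mean count, had -0.15 (limma adjusted p = 0.209). With any 1 YK-4-279 library left out, 0 of RBBP4, RBBP7 and TFDP1 were called.

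Among 19 genes that act on the stability of the MYC and MYCN proteins, 3 were called, all lower, against 2.15% of all genes, and the median was -0.07. There were 8, or 42.1%, with an unadjusted p under 0.05, against 18.7% of all genes. The 3 called genes were CDK1, a mitotic kinase that can phosphorylate MYCN, at -0.46 on the log2 scale (limma adjusted p = 0.00741), CDK2 at -0.38 (adjusted p = 0.0117) and CIP2A, an inhibitor of the phosphatase PP2A that protects MYC, at -0.33 (adjusted p = 0.0476). SKP2, an E3 ligase subunit with the highest mean count of the list, had a log2 fold change of -0.18 (adjusted p = 0.121). CDK1 and CDK2 are also general cell cycle genes. Of 12 regulators of MYC family mRNA, 11 were tested and 0 were called by limma, edgeR or DESeq2, with 3 at an unadjusted p under 0.05, and HNRNPK, with the highest mean count, had -0.03. The protein levels of MYC and MYCN were not measured in these data.

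Genes known as MYC targets were counted in 4 lists. These lists were chosen with earlier results of these data known, so their shares are descriptions and were not tested as sets. The list of ribosome biogenesis, a known program of MYC and MYCN, had 0 of 42 genes called by limma, against 3.41% of all genes. With 42 genes, a count of 0 is close to that share. Of its 42 genes, 25 had higher and 17 lower means, with a median log2 fold change of 0.03, 0 were called by limma and edgeR and 1 by DESeq2, and 7 had an unadjusted p under 0.05, or 16.7% of them. NCL, nucleolin, its gene with the highest mean count, had a log2 fold change of -0.03 (limma adjusted p = 0.841). Of 38 genes of metabolism and translation, 30 had lower means, or 78.9% against 52% of all genes, and 3 were called, all lower, or 7.89% against 2.15%. The median was -0.10, and 14 genes, or 36.8%, had an unadjusted p under 0.05. PSAT1, of serine synthesis, PAICS, of purine synthesis, and SHMT1, of folate metabolism, fell by 0.30, 0.29 and 0.29 on the log2 scale (limma adjusted p = 0.0196, 0.0298 and 0.0321), while PKM, with the highest mean count, was at -0.003.

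Of the cell cycle targets, 21 of 22 were tested, TERT being at 0 in all libraries, and 19 had lower means, with a median of -0.16. There were 5 called lower and 1 called higher, against 2.15% and 1.26% of all genes, and 14, or 66.7%, had an unadjusted p under 0.05, against 18.7%. The sliding clamp PCNA fell by 0.37 on the log2 scale (limma adjusted p = 0.00741), and it had 5787, 5138 and 5395 normalized counts in DMSO and 4101, 4337 and 4209 in YK-4-279, without overlap. CCNE1 (cyclin E1) and E2F2 fell by 0.33 and 0.31 (limma adjusted p = 0.0196 and 0.0167). CDK4, with the highest mean count of the list, had a log2 fold change of -0.12 (adjusted p = 0.323).

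ID2, an inhibitor of helix-loop-helix factors and a known target of MYC and MYCN, went the other way. It had 232, 209.8 and 214 normalized counts in DMSO and 416, 444 and 404 in YK-4-279. The groups did not overlap, and ID2 rose from 219 ± 11.8 to 421 ± 20.7 (SD, n = 3 per group), a log2 fold change of 0.94 (SE 0.09, limma adjusted p = 2.8e-04). This is the largest change of the genes in the 3 lists of activated targets.

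Of 28 genes known as repressed by MYC, 27 were tested, 20 had higher and 7 lower means, and 5 were called, all higher, with a median of 0.12. That is 74.1% with higher means against 48% of all genes, and 18.5% called against 1.26% called higher. There were 10, or 37%, with an unadjusted p under 0.05. CDKN2B, the CDK4 inhibitor p15 that MYC represses through ZBTB17 (MIZ1), had 78.2, 90.9 and 78.5 normalized counts in DMSO and 195, 177 and 178 in YK-4-279. It rose by 1.15 on the log2 scale (SE 0.13, limma adjusted p = 7.49e-04). CLU, clusterin, rose by 0.74 (adjusted p = 0.0260), NDRG1, a stress and differentiation gene named for its repression by MYCN, by 0.65 (adjusted p = 0.00137), and CCN2, a secreted matrix protein, by 0.63 (adjusted p = 0.00473). KLF4, the fifth called gene, named after its values were seen, rose by 0.49 (adjusted p = 0.0316), and GAS1, with the highest mean count of the list, had 0.03 (adjusted p = 0.890). All of these genes are also controlled by factors other than MYC, and MYC or MYCN binding was not measured in these data.

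**Figure D4:**
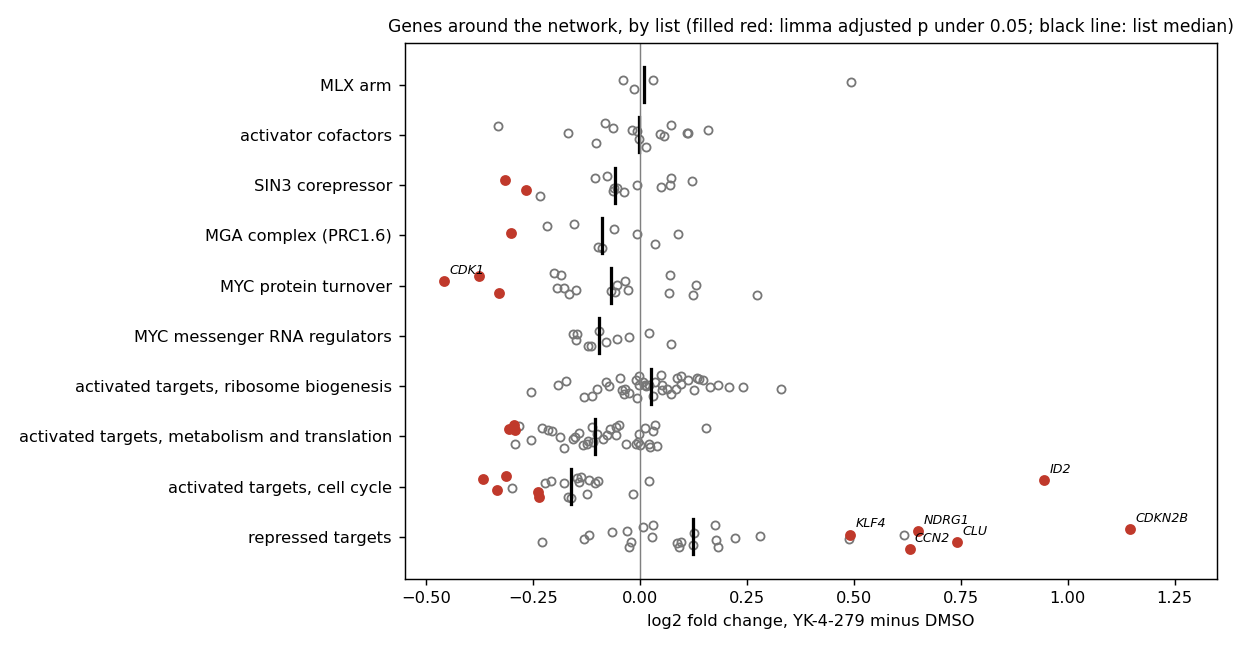
Log2 fold change (YK-4-279 minus DMSO) of each tested gene in 10 lists around the network, 1 row per list, with small vertical offsets to part the points. Filled red points had a limma adjusted p under 0.05 and black lines are the list medians, which run from -0.16 for the cell cycle targets to 0.12 for the repressed targets, with ribosome biogenesis at 0.03.

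These counts moved with single libraries, as did those over all genes, of which 8.46% were called lower and 4.62% higher without DMSO replicate 1, against 2.15% and 1.26% with all libraries. Without DMSO replicate 1, 15 of the cell cycle targets were called lower and 1 higher, 15 of the metabolism list lower and 1 higher, 3 of the ribosome biogenesis list lower, 6 of the protein turnover list lower, 5 of the mRNA regulators lower, 2 of the cofactors of activation lower, 3 of the SIN3 list lower, 1 of the MGA complex lower, 1 of the MLX arm higher, and 8 of the repressed targets higher and 2 lower. With any 1 YK-4-279 library left out, the cell cycle list had 1 call, the metabolism list 0, the protein turnover list 0 or 1 and the repressed targets 2 or 3. Of the FP-RMS markers, 13 were tested, 5 had higher and 8 lower means, with a median of -0.009, and 0 were called by limma, edgeR or DESeq2, with 4 at an unadjusted p under 0.05 and 4 called lower without DMSO replicate 1. MYOD1 and MYOG, the master regulators of the muscle lineage, were at -0.01 and 0.23 on the log2 scale (limma adjusted p = 0.963 and 0.224), and DES was at 0.14. PAX3 and FOXO1, whose rows also hold reads of the fusion transcript, had 0.07 and -0.25 (limma adjusted p = 0.616 and 0.128).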

How the data were processed

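RNAseq was performed on 6 libraries of Rh30 cells, 3 with YK-4-279 and 3 with DMSO. The authors removed adapters with BBDuk, mapped reads to hg38 and obtained counts per gene with STAR 2.7.9a. The deposited values are a normalized signal, the read number of a gene scaled by 1 constant per library. Dividing by that constant gave whole reads for 100% of values (tolerance 1e-06). Of 35269 rows, 1 without a gene name, with at most 6 reads in a library, was left out. Groups were taken from the labels.

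The main test was limma (version 3.58.1, R 4.3.3; lmFit, then eBayes with a variance trend), two-sided, on log2(normalized count + 1), which understates the change of low genes. It covered the 13930 genes whose mean reached 10, with Benjamini-Hochberg adjustment over all of them and a threshold of 0.05. Confidence intervals are at 95%. Alternatives were pseudocounts of 0.5 and 10, no filter and a filter of 100, scaling by TMM or by quantiles, eBayes with no trend, a replicate block, each library left out in turn, the count tests of edgeR (4.0.16) and DESeq2 (1.42.0), and removal from each library of a smooth trend over GC content and length. Coordinates and lengths are from GENCODE release 44 on hg38, promoters from RefSeq on GRCh38.p14 with chromosome 8 left out. The code was tested on simulated data. Genes named outside the network were, in each list, the gene with the highest mean count and up to 4 called genes with the largest change, the listed neighbours, 5 muscle and fusion genes and the 3 nearest profiles to the member with the smallest p-value, and 2 genes marked in the text as named after their values were seen. Genes that share exons with MXD3, and markers or list members near 0, are also named. The members and lists were chosen with earlier results of these data known.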

Additional observations from a re-analysis of the deposited data

How the results depend on the processing

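The number of members called was 1 with all libraries and 0 without a trend in the variance, 3 (MXD1, MXD3 and MXD4) after the trend on GC content and length was removed, and 0 to 4 with 1 library left out, the 4 being MXD1, MXD3, MXD4 and MGA without DMSO replicate 1. Over all genes, 475 were called, 277 with quantile scaling, 33 without the variance trend, 1885 after the GC and length removal, and 19 to 1823 with 1 library left out, of which DMSO replicate 1 gave 1823 and the YK-4-279 replicates 19, 23 and 46. The split of higher and lower genes was 176 and 299, and 132 and 145 with quantile scaling, 30 and 3 without the variance trend and 495 and 1390 after the GC and length removal. Without the variance trend the cell cycle list had 1 call, which was higher, and 0 lower calls, the repressed targets 3 and each of the other 8 lists 0. The count tools gave 465 (edgeR, 435 of them shared) and 635 (DESeq2, 450 shared). The sign of 3 members turned, none of them called. MYC lay between -0.0105 and 0.0864 and MYCN between -0.0225 and 0.0860 with 1 library left out, both negative without DMSO replicate 1. MYCN was also at -0.0274 after the GC and length removal, and MAX lay between -0.00866 and 0.0949, negative without DMSO replicate 3. The difference of the summed MXD level, 0.297%, was -2.61% by coding transcript length and -4.47% to 6.68% with 1 library left out, alternatives chosen after seeing the data. The cause was not tested. With a replicate block 180 genes and 1 member were called, MXD4 with an adjusted p of 0.0308. Same-numbered libraries did not deviate together (correlations of -0.098, -0.027 and -0.027), which does not show whether they were prepared together. With 3 libraries a group, changes smaller than the width of the intervals given could not be resolved. The lowest member had 249 reads in a library, and the part of read depth in this limit was not tested.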
